A study of Mus musculus with 16 samples.

Results

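Macrophage marker genes were examined in RNA-seq libraries of mouse granulosa cells (mGCs), the cells that nurse the oocyte inside the follicle. The 10 genes, taken from 57010 counted genes by their symbols, were Csf1r, Adgre1, C1qa, C1qb, C1qc, Cd68, Lyz2, Spp1, Arg1 and Lgals3, and each had 1 row in both count tables. The study compared mGCs of mice with an endometriosis (EM) model with those of sham-operated mice, and tested 14,15-EET, a lipid made from arachidonic acid, on cultured mGCs of the model. All mice were female ICR mice, 6 weeks old when bought. The 5 EM-mGC libraries came from mice with endometrium of estradiol-treated donors sutured into the mesentery, and the 5 Con-mGC libraries from mice given sham surgery without an implant. Mice that received grafts kept their ovaries and were given estradiol after surgery, then a washout, and whether sham mice had estradiol too is not given in the sources used here. These 10 libraries were made from freshly isolated cells after ovulation had been induced with PMSG or HCG about 30 days after surgery. The 3 PBS and 3 EET libraries both came from cultured mGCs of 6 EM mice, so no sham cells were cultured. The methods state that these cells were split between both treatments and that 3 paired replicates were sequenced, but do not say that equal replicate numbers mark a pair. They were grown for 24 h in DMEM/F12 medium holding 5% FBS, and then received PBS or, for 24 h, 14,15-EET at 100 nM. How granulosa cells were separated from other cells of the ovary is not given in the sources used here, and no sort against leukocytes is named, so a library could hold other cells of the follicle wall and blood.

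Macrophages live in the ovary between and around follicles, take up dying cells, and gather around follicles near ovulation and in the corpus luteum. CSF1R, the receptor for the growth factors CSF1 and IL-34, is needed for their survival. C1q, built from the products of C1qa, C1qb and C1qc, starts the classical complement pathway and tags dying cells for uptake. Lysozyme (Lyz2), osteopontin (Spp1), arginase 1 (Arg1) and galectin-3 (Lgals3) are products of activated myeloid cells, but only some of these genes are restricted to macrophages. Neutrophils and monocytes make Lyz2 too, and Spp1 and Lgals3 are also made by many cells that are not leukocytes.

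Levels are CPM values (counts scaled to a common library size), TMM-normalized within each experiment, and groups were compared with edgeR's quasi-likelihood test, called at an adjusted p of 0.05 over all genes tested. Between 14229123 and 15999234 reads were counted per fresh library and between 21384686 and 29482826 per cultured library. Mitochondrial transcripts took 21.8% of reads in EM-mGC-3 and 6.76% to 11.1% in the other 9 fresh libraries. EM-mGC-3 also had the highest summed level of 5 red blood cell markers, 17411 CPM against at most 6147 CPM elsewhere. The 9 granulosa cell markers were detected in all groups and summed to 11539 to 15672 CPM in Con-mGC and 5908 to 20727 CPM in EM-mGC, highest in EM-mGC-2 and lowest in EM-mGC-4. In the cultured libraries they summed to 5335 to 5881 CPM with PBS and 5006 to 5410 CPM with EET.

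In fresh mGCs all 10 genes were detected in every library. Levels were set side by side as RPKM, per length of all annotated exons of a gene, so their order depends on the annotation. Lyz2 had the highest mean level in Con-mGC, 95.3 ± 35.7 (SD, n = 5), followed by C1qa at 27.0 ± 6.99 and C1qb at 19.5 ± 3.92. Cd68, Lgals3, Spp1 and C1qc followed at 14.5 ± 3.73, 13.4 ± 6.29, 13.1 ± 10.0 and 11.8 ± 3.25 RPKM and lay within 1 SD of each other. C1qc had a mean of 22.7 CPM against 21.2 CPM for C1qb, but 1931 exon bases against 1088. Csf1r came next at 7.86 ± 1.52 RPKM, and Adgre1 and Arg1 were lowest at 4.11 ± 0.893 and 4.04 ± 1.87 RPKM, which did not differ beyond their spread. In EM-mGC Spp1 moved from the sixth to the second place, Lgals3 from the fifth to the fourth and Arg1 from the last to the eighth, while Lyz2 stayed first at 210 ± 102 RPKM and Adgre1 became last at 4.20 ± 1.51 RPKM. The second place of Spp1 carried an SD larger than its mean, 144 ± 196 RPKM.

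In fresh EM-mGC against Con-mGC, the members fell into 2 sets by the size of their difference. Csf1r, Adgre1, the 3 C1q genes and Cd68 had log2 fold changes between 0.03 and 0.41, while Lyz2, Lgals3, Arg1 and Spp1 had log2 fold changes of 1.14, 1.22, 1.80 and 3.45. All 10 genes were tested, all 10 had a higher fitted level in EM-mGC, and 0 were called, with a smallest adjusted p of 0.297 (edgeR). The share of all 17229 genes called was also 0%. At an unadjusted p under 0.05, 4 of 10 members were higher and 0 lower, where 5.22% of all genes tested were higher and 4.22% lower. The median log2 fold change was 0.39 over the members and -0.01 over all genes tested. A bulk library cannot tell more cells of a type from more RNA per cell. DESeq2 called 3 of the members higher (Lyz2, Spp1 and Arg1), where it called 0.371% of all genes higher.

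**Figure D1:**
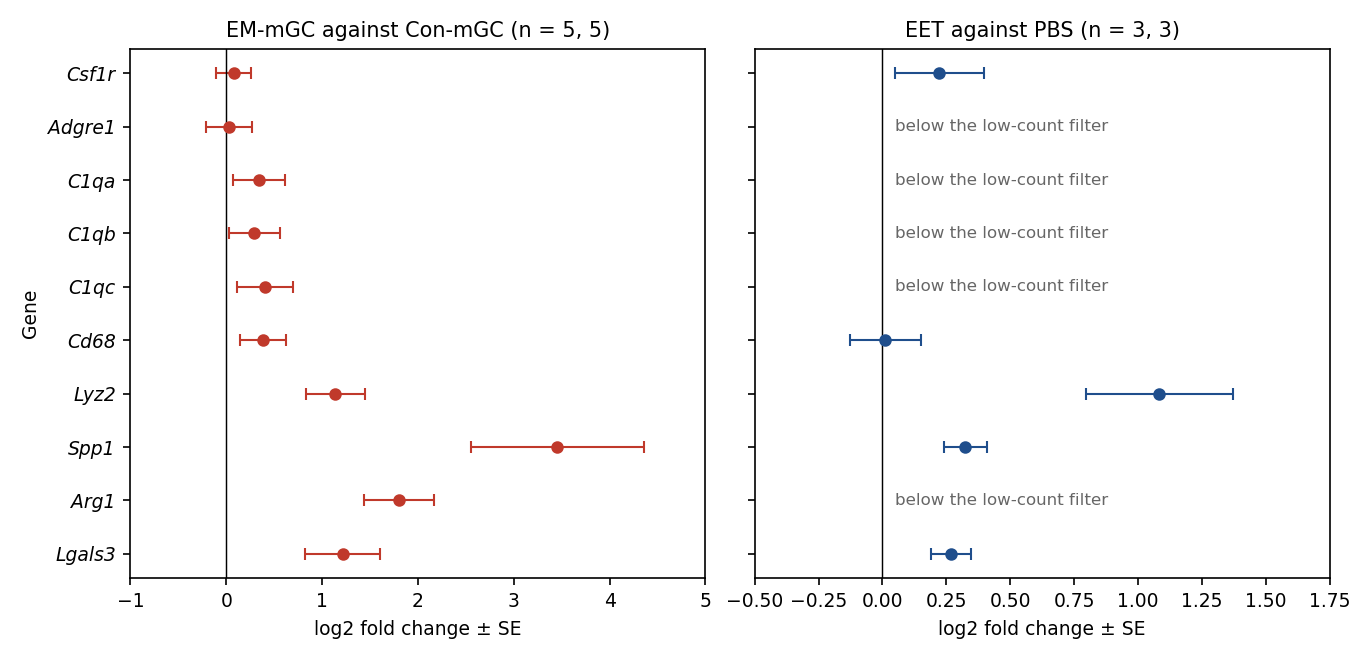
Log2 fold change (horizontal axis) of each gene (vertical axis) in EM-mGC against Con-mGC and in EET against PBS; points are edgeR estimates and bars are standard errors, and the 2 panels have different horizontal scales. Spp1 has the largest change and the widest bar in the fresh comparison (3.45, SE 0.91), and 5 genes fell below the low-count filter in culture.

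Csf1r, the growth factor receptor of the lineage, had the second smallest fold change of the members in the fresh comparison, after Adgre1. It measured 41.1, 41.3, 56.1, 35.5 and 53.0 CPM in Con-mGC and 49.9, 29.9, 62.4, 48.5 and 48.9 CPM in EM-mGC. The 2 groups overlapped over most of their range, with the lowest and the highest library both in EM-mGC. Its log2 fold change was 0.08 (SE 0.18, adjusted p = 0.904, edgeR) and became -0.03 without EM-mGC-3. Reads of Csf1r lie on the strand opposite to an overlapping gene, Hmgxb3, and whether the counting used strand is not given in the sources used here. Hmgxb3 measured 44.5 ± 4.72 CPM in Con-mGC (n = 5), 41.1 ± 3.16 in EM-mGC (n = 5), 64.8 ± 2.73 with PBS (n = 3) and 65.3 ± 2.60 with EET (n = 3). Adgre1, which encodes the F4/80 surface antigen of mouse macrophages, ranged from 10.9 to 18.1 CPM in Con-mGC and from 7.95 to 21.4 CPM in EM-mGC. Its log2 fold change was 0.03 (SE 0.24, adjusted p = 0.977, edgeR), and the estimate was below 0 when Con-mGC-1, Con-mGC-4 or EM-mGC-3 was left out.

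The 3 C1q chains, which assemble into 1 protein and are coded next to each other on chromosome 4 (GRCm39 per the labels, minus strand; C1qb 136607440 to 136613498, C1qc 136617115 to 136620376, C1qa 136623228 to 136626114), varied together. C1qa measured 32.4, 21.9, 34.9, 18.6 and 32.5 CPM in Con-mGC and 36.8, 14.8, 46.4, 39.2 and 40.5 CPM in EM-mGC. In EM-mGC 4 libraries lay above every Con-mGC library and EM-mGC-2 lay below all of them. The same library was the lowest in the series of fresh libraries for C1qb, at 9.92 CPM, and for C1qc, at 12.02 CPM. C1qb measured 21.2 ± 4.26 CPM in Con-mGC and 26.0 ± 9.21 in EM-mGC, and C1qc 22.7 ± 6.28 and 30.1 ± 11.8 (SD, n = 5 each). The log2 fold changes of C1qa, C1qb and C1qc were 0.34 (SE 0.27), 0.29 (SE 0.27) and 0.41 (SE 0.29), with adjusted p-values of 0.699, 0.742 and 0.668 (edgeR). Without EM-mGC-2 they were 0.54, 0.50 and 0.61, and 8 of the 10 members then had an unadjusted p under 0.05, with 0 called by edgeR. Leaving out that library also raised the share of all genes at an unadjusted p under 0.05, from 9.44% to 14.4%. EM-mGC-2 was the library with the highest granulosa marker sum and the lowest pan-leukocyte sum of its group, 123 CPM against 166 to 289 CPM, and their part in the C1q values was not tested.

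The promoters of C1qb and C1qc are shown because the 2 neighbouring genes varied together over the fresh libraries. The sequences are from RefSeq (GRCm38.p6) and run 5′ to 3′ on the minus strand from 250 bases before to 50 after the start, at chr4:136886151-136886450 for C1qb and chr4:136892865-136893164 for C1qc, in an older build than the gene coordinates above. Capitals mark GAGGAA or its reverse complement TTCCTC, the PU box that PU.1, the myeloid factor encoded by Spi1, prefers, which was searched on both strands.
C1qb: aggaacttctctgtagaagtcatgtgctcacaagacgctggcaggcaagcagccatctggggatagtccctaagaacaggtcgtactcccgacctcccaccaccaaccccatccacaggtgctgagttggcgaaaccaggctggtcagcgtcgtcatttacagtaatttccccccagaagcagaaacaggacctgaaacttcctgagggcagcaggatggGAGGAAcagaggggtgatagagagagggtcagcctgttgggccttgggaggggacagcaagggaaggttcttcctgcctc
C1qc: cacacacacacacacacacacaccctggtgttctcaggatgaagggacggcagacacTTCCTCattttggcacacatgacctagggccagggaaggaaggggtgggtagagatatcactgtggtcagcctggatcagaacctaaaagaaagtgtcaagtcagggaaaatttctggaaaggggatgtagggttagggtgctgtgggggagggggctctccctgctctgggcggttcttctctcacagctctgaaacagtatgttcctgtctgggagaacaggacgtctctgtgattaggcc
The match began 30 bases before the start in C1qb and 193 bases before it in C1qc. These 6 letters occurred in 28.3% of 32851 promoters of this length. Of the 10 members, 6 had an entry in the table and 4 of these held the letters (C1qb, C1qc, Cd68 with 2, and Spp1), while Lgals3 and Lyz2 did not. Spi1 itself measured 9.76 ± 2.53 CPM in Con-mGC and 15.7 ± 4.38 in EM-mGC (n = 5 each) and was not called by edgeR. Binding of PU.1 to these promoters, and its part in the levels of the members, was not tested.

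Cd68, a glycoprotein of late endosomes and lysosomes, lay near the C1q genes in the size of its difference. It ranged from 13.1 to 24.9 CPM in Con-mGC and from 13.1 to 31.8 CPM in EM-mGC, and its log2 fold change was 0.38 (SE 0.24, adjusted p = 0.620, edgeR).

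Lyz2 encodes the lysozyme of myeloid cells and was the most abundant member per length in both fresh groups. It measured 107, 124, 206, 106 and 84.5 CPM in Con-mGC and 172, 179, 497, 301 and 231 CPM in EM-mGC. Only Con-mGC-3 reached into the range of EM-mGC. The log2 fold change was 1.14 (SE 0.31, adjusted p = 0.379, edgeR; 0.0393 with DESeq2), and it lay between 0.82 and 1.39 with any 1 fresh library left out. Over all alternatives its adjusted p lay between 0.0393 and 0.862. Its paralog Lyz1 was at most 1.99 CPM in any fresh library, and how reads shared by both genes were assigned is not given in the sources used here.

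Arg1, the arginase that splits arginine into ornithine and urea, was the member with the smallest p in this comparison and the only one whose groups did not overlap. It measured 7.76, 6.01, 15.4, 10.7 and 5.13 CPM in Con-mGC and 15.7, 20.8, 54.4, 35.4 and 30.8 CPM in EM-mGC. The gap between the groups was narrow, from 15.4 CPM in Con-mGC-3 to 15.7 CPM in EM-mGC-1. Every EM-mGC library lay above every Con-mGC library in 0.917% of all genes tested. The log2 fold change was 1.80 (SE 0.36, adjusted p = 0.297, edgeR; 0.000739 with DESeq2). Without Con-mGC-3 it was 2.09 and was called (adjusted p = 0.0488, edgeR), in a fit that called 46 genes. Over all alternatives its adjusted p lay between 0.000739 and 0.755.

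Spp1 encodes osteopontin, a secreted protein that binds integrins and CD44, and had the widest spread of the members. It measured 10.9, 21.1, 48.5, 22.2 and 5.49 CPM in Con-mGC and 53.6, 25.3, 67.0, 793 and 247 CPM in EM-mGC. EM-mGC-4 and EM-mGC-5 stood far above the rest, EM-mGC-2 lay within the range of Con-mGC, and the groups overlapped. The log2 fold change was 3.45 (SE 0.91, adjusted p = 0.376, edgeR; 0.0365 with DESeq2), and was 2.18 without EM-mGC-4. The adjusted p of Spp1 lay between 0.0365 and 0.830 over all alternatives. EM-mGC-4 had the lowest granulosa marker sum and the highest neutrophil marker sum of the fresh libraries, and their part in its Spp1 level was not tested. The Spp1 promoter (RefSeq, GRCm38.p6, chr5:104434861-104435160, plus strand, 5′ to 3′) is shown with the same capitals, since Spp1 was the member with the largest change and the highest level in culture. Its match began 113 bases before the start.
Spp1: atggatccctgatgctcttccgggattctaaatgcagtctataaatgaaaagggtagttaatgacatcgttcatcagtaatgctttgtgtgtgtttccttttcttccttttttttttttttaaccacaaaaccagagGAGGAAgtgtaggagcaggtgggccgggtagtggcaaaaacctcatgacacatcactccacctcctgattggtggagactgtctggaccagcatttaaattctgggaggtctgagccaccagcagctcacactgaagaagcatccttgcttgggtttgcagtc

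Lgals3 encodes galectin-3, a lectin that binds galactosides at the cell surface and on damaged lysosomes. It measured 33.3, 25.7, 38.9, 14.4 and 11.9 CPM in Con-mGC and 48.3, 20.04, 71.9, 91.0 and 57.2 CPM in EM-mGC. Of the EM-mGC libraries 4 lay above every Con-mGC library, and EM-mGC-2 lay among them. The log2 fold change was 1.22 (SE 0.39, adjusted p = 0.443, edgeR), with a range from 0.99 to 1.44 when single libraries were left out.

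**Figure D2:**
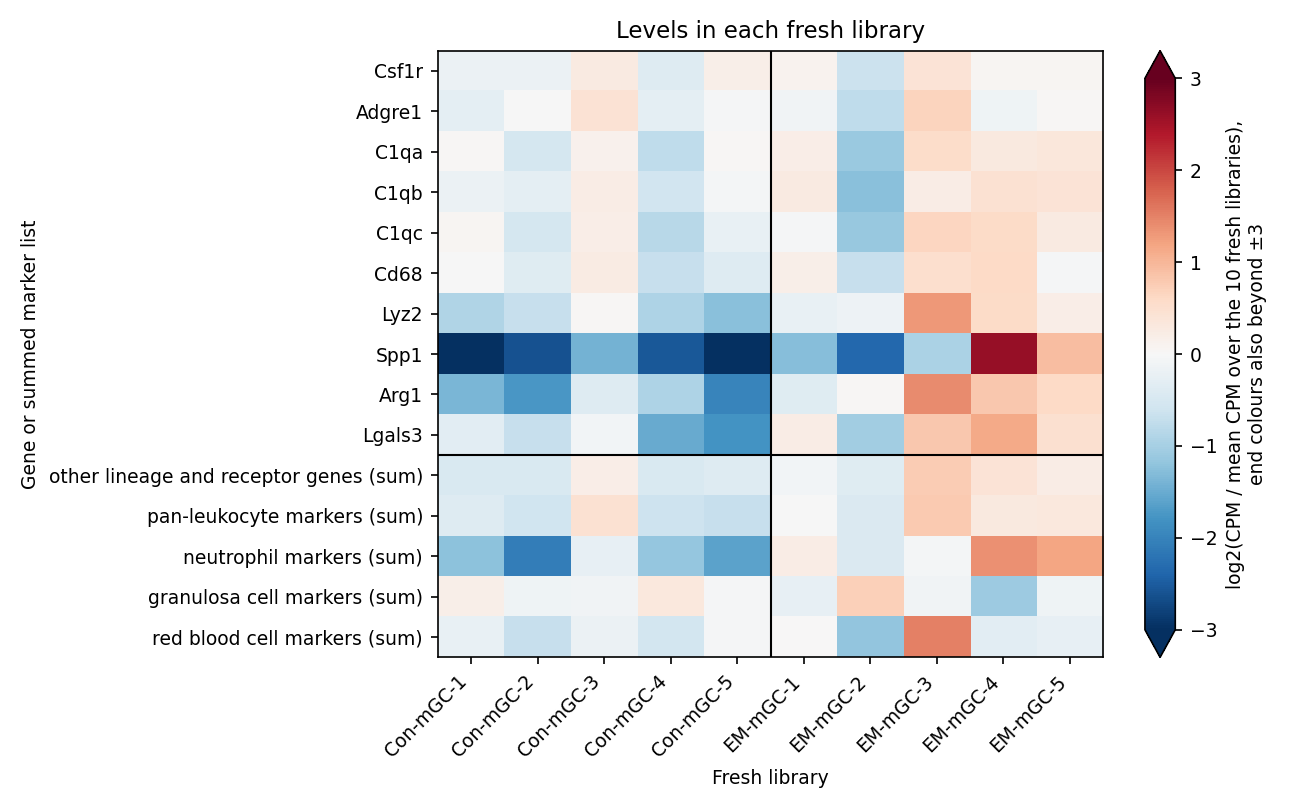
Level of each gene and of summed marker lists (rows) in each fresh library (columns), as log2 of the CPM over the mean CPM of the 10 libraries; red is above and blue below the mean, and the end colours also stand for values beyond 3. Con-mGC-3 is the highest Con-mGC library in all 10 genes, EM-mGC-2 is the lowest EM-mGC library in 8 of them, and the neutrophil sum is highest in EM-mGC-4 and EM-mGC-5.

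Con-mGC-3 was the highest Con-mGC library for all 10 genes, and Con-mGC-4 or Con-mGC-5 was the lowest, for 6 and 4 genes. Among the EM-mGC libraries, EM-mGC-3 was the highest for 6 genes and EM-mGC-4 for 4, and EM-mGC-2 was the lowest for 8. Over the 10 fresh libraries, which share their groups and their mixture of cells, Pearson's r of log2(CPM + 0.5) was 0.94 between C1qa and C1qb, 0.96 between C1qa and C1qc and 0.92 between C1qb and C1qc. It was 0.90 between Csf1r and Adgre1 and 0.91 between Csf1r and C1qa, but 0.47 between Csf1r and Lyz2, 0.30 between Csf1r and Arg1 and 0.27 between Csf1r and Spp1. Lyz2 and Arg1 had an r of 0.95 with each other. These correlations describe 10 libraries and were not tested.

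Among 14498 other genes compared over the same 10 libraries, those most like Csf1r were Slc9a9 (r = 0.94), Rsad2, C1qa, Rbm46 and Mgl2, the last a lectin of macrophages and dendritic cells. Those most like C1qa were C1qc, Gatm, Arhgap30, Unc93b1 and Arhgap9, with r from 0.94 to 0.96. Lyz2 was matched most closely by Cd14, the co-receptor for bacterial lipopolysaccharide (r = 0.99), then Srgn, Rab8b, Rps27l and H3f3b. The closest to Arg1 were Ccdc71l (r = 0.97), Wfdc17, Bst1, the leukocyte integrin chain Itgb2 and the chemokine Cxcl3. Spp1 was followed most closely by Btg2 (r = 0.98), Rgcc, Slc20a1, Sbsn and Tmx1.

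Scaled to Csf1r, Arg1 was the one member of the other 9 whose fresh groups did not overlap. For each Csf1r read there were 0.0968 to 0.300 reads of Arg1 in Con-mGC and 0.314 to 0.872 in EM-mGC, a narrow gap. Lyz2 gave 1.59 to 3.66 reads per Csf1r read in Con-mGC and 3.44 to 7.97 in EM-mGC, with EM-mGC-1 inside the range of Con-mGC. Spp1 gave 0.104 to 0.863 reads in Con-mGC and 0.846 to 16.3 in EM-mGC. C1qa gave 0.524 to 0.787 reads in Con-mGC and 0.495 to 0.827 in EM-mGC, and Adgre1 0.248 to 0.324 and 0.251 to 0.343, so both overlapped over most of their range. These ratios were not tested, and the share of all genes without overlap was not computed for them, so the gap of Arg1 has no background. The Csf1r count may also hold reads of the overlapping gene Hmgxb3 if strand was not used.

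**Figure D3:**
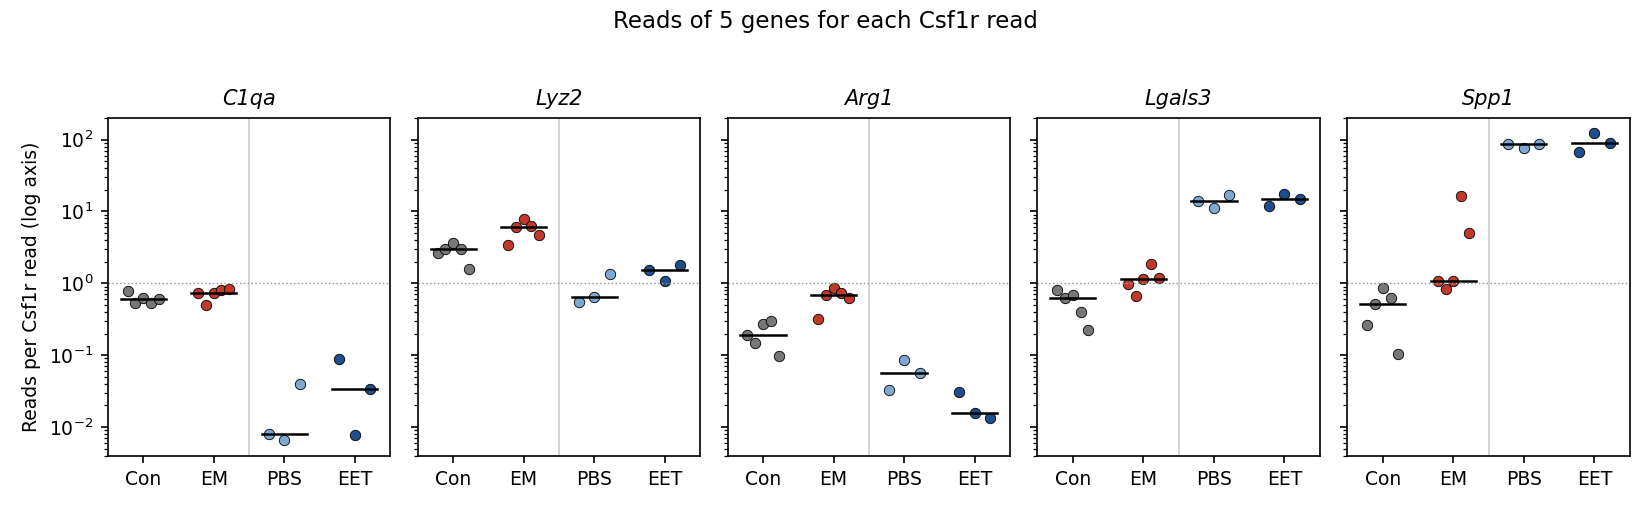
Reads of 5 genes per Csf1r read (vertical log axis) in each library of the 4 groups (horizontal axis); each point is a library, the bar is the median, and the dotted line marks equal numbers of reads. Medians for Arg1 are 0.189 in Con-mGC and 0.695 in EM-mGC, and medians for Spp1 are 0.511 in Con-mGC, 1.08 in EM-mGC and 87.4 with PBS. Csf1r itself had a mean of 47.9 CPM in EM-mGC and 5.42 CPM with PBS.

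Other macrophage genes gave counts of the same kind in the fresh comparison. Of 27 lineage and receptor genes, 26 were tested, 21 had a higher fitted level in EM-mGC and 0 were called, with 11 higher and 0 lower at an unadjusted p under 0.05 and a median log2 fold change of 0.52. The lowest p-values were those of Cd14 (log2 fold change 1.84, SE 0.41), the integrin chain Itgam (1.70, SE 0.45), the C-type lectin Clec4d (2.05, SE 0.58) and the scavenger receptor Msr1 (1.23, SE 0.38). Adjusted p-values of these 4 genes were between 0.348 and 0.433 (edgeR), and the groups of each overlapped. Itgam and Clec4d are expressed by neutrophils as well.

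Of 17 further genes for lipid handling, lysosomes and activation, 0 were called, and 4 were higher and 1 lower at an unadjusted p under 0.05. Chil3, a chitinase-like secreted protein, measured 2.31 ± 3.93 CPM in Con-mGC and 27.1 ± 16.01 in EM-mGC (n = 5 each), with a log2 fold change of 3.54 (SE 0.86, adjusted p = 0.348, edgeR). Its groups did not overlap, where every EM-mGC library lay above every Con-mGC library in 0.917% of all genes tested. Chil3 gave 2 to 149 reads per Con-mGC library and 137 to 668 per EM-mGC library. It passed the low-count filter through EM-mGC, so a high level there was a condition of its test. The cathepsin Ctss and Retnla had log2 fold changes of 0.91 (SE 0.31) and 1.58 (SE 0.55), each with an adjusted p of 0.462 (edgeR). Nos2, the inducible nitric oxide synthase that competes with arginase for arginine, had a log2 fold change of -0.44 (SE 0.14, adjusted p = 0.437, edgeR).

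Partners of the members gave few genes at that limit. The CSF1R ligands Csf1 and Il34 gave 0 of 2 genes at an unadjusted p under 0.05, with Csf1 at 13.0 ± 2.29 CPM in Con-mGC and 11.6 ± 2.40 in EM-mGC (n = 5 each). None of the classical complement partners of C1q (0 of 6) and none of its binding proteins (0 of 4) passed that limit. The central complement protein C3 measured 131 ± 49.7 CPM in Con-mGC and 151 ± 67.5 CPM in EM-mGC. Of 7 osteopontin receptors 2 were higher at an unadjusted p under 0.05, Cd44 with a log2 fold change of 1.11 (SE 0.37) and Itgb3 with 0.68 (SE 0.29), and neither was called. Of 7 other genes of arginine metabolism, only the endothelial nitric oxide synthase Nos3 passed that limit, with a log2 fold change of -0.47 (SE 0.21). Of the other galectins and their partners, Lgals1 had 0.43 (SE 0.19) and Lgals3bp -0.57 (SE 0.25). Lyz1, Lamp1 and Lamp2 gave 0 of 3.

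The pan-leukocyte and most neutrophil markers had higher fitted levels in EM-mGC. All 9 pan-leukocyte markers had a higher fitted level in EM-mGC, 5 of them at an unadjusted p under 0.05 and 0 called, with a median log2 fold change of 0.79. They summed to 103 to 228 CPM in Con-mGC and 123 to 289 CPM in EM-mGC. Ptprc, the common leukocyte antigen CD45, was not among these 5 and lay below the median, with a log2 fold change of 0.25 (SE 0.29, adjusted p = 0.799, edgeR). Of 14 neutrophil markers, 10 were tested, 9 of these were higher at an unadjusted p under 0.05, 0 were called, and the median log2 fold change was 2.68. S100a9, a chain of the neutrophil protein calprotectin, measured 6.24 ± 7.71 CPM in Con-mGC and 47.2 ± 31.9 CPM in EM-mGC. The neutrophil markers summed to 22.0 to 78.6 CPM in Con-mGC, highest in Con-mGC-3, and to 68.5 to 242 CPM in EM-mGC, and 1 of the 14 was at 0 in every Con-mGC library and 0 of the 14 in every EM-mGC library. Lyz2, Arg1, Spp1 and Lgals3 had their higher values in the same group as the neutrophil markers, and the part of neutrophils in their values was not tested.

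Most lymphocyte, stromal and endothelial markers had lower fitted levels in EM-mGC. Of the T, B and NK cell markers, 9 of 11 were tested, 7 of these were lower, and Cd79b alone passed an unadjusted p of 0.05, with a log2 fold change of -1.19 (SE 0.40). The 5 endothelial markers were all lower, 2 of them (Tek and Cdh5) at an unadjusted p under 0.05. Of the 8 theca and stromal markers 3 were lower at that limit, Col1a1, Col1a2 and Col3a1, with Col1a1 at 395 ± 53.8 CPM in Con-mGC and 202 ± 67.9 CPM in EM-mGC. None of the dendritic cell and antigen presentation markers (5 of 7 tested), the 9 granulosa cell markers, the 5 red blood cell markers or the 5 oocyte markers passed it, and 0 of 7 mast cell and eosinophil markers were tested. The mast cell and eosinophil markers summed to 2.21 to 5.90 CPM in Con-mGC and 0.557 to 1.59 CPM in EM-mGC, so every EM-mGC library lay below every Con-mGC library. These sums rest on few reads, 309 over all Con-mGC libraries and 73 over all EM-mGC libraries. The share of genes or lists lower in every EM-mGC library was not computed, so this gap has no background.

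In cultured mGCs the C1q genes, Adgre1 and Arg1 gave few reads, Lyz2, Csf1r and Cd68 were low, and Spp1 and Lgals3 had the highest levels of the members. Levels of EM-mGC and PBS are set side by side without a test, since the 2 tables were scaled separately and the experiment cannot be told apart from the culture. Every EM-mGC library lay above every PBS library for 8 of 10 members, where this held for 44.4% of 17897 genes, and every PBS library lay above every EM-mGC library for 0 members against 21.1% of genes. C1qa and Adgre1 were 401 and 177 times higher in mean CPM in EM-mGC, C1qc, C1qb and Arg1 were 153, 137 and 100.1 times higher, and Lyz2 was 62.8 times higher. Csf1r and Cd68 were 8.84 and 5.604 times higher. Spp1 and Lgals3 were 1.90 and 1.29 times higher with PBS, with overlapping libraries. For Spp1 the overlap came from EM-mGC-4 alone, at 793 CPM. The next EM-mGC library was at 247 CPM, and the PBS libraries lay between 396 and 514 CPM. Leaving out single libraries moved these ratios where few reads or 1 library carried a mean. Without PBS-3 the ratio was 827 for C1qa and 316 for Adgre1, without PBS-2 it was 482 for C1qb and 361 for C1qc, without PBS-1 it was 91.2 for C1qb, and without EM-mGC-4 the PBS level of Spp1 was 4.60 times higher.

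**Figure D4:**
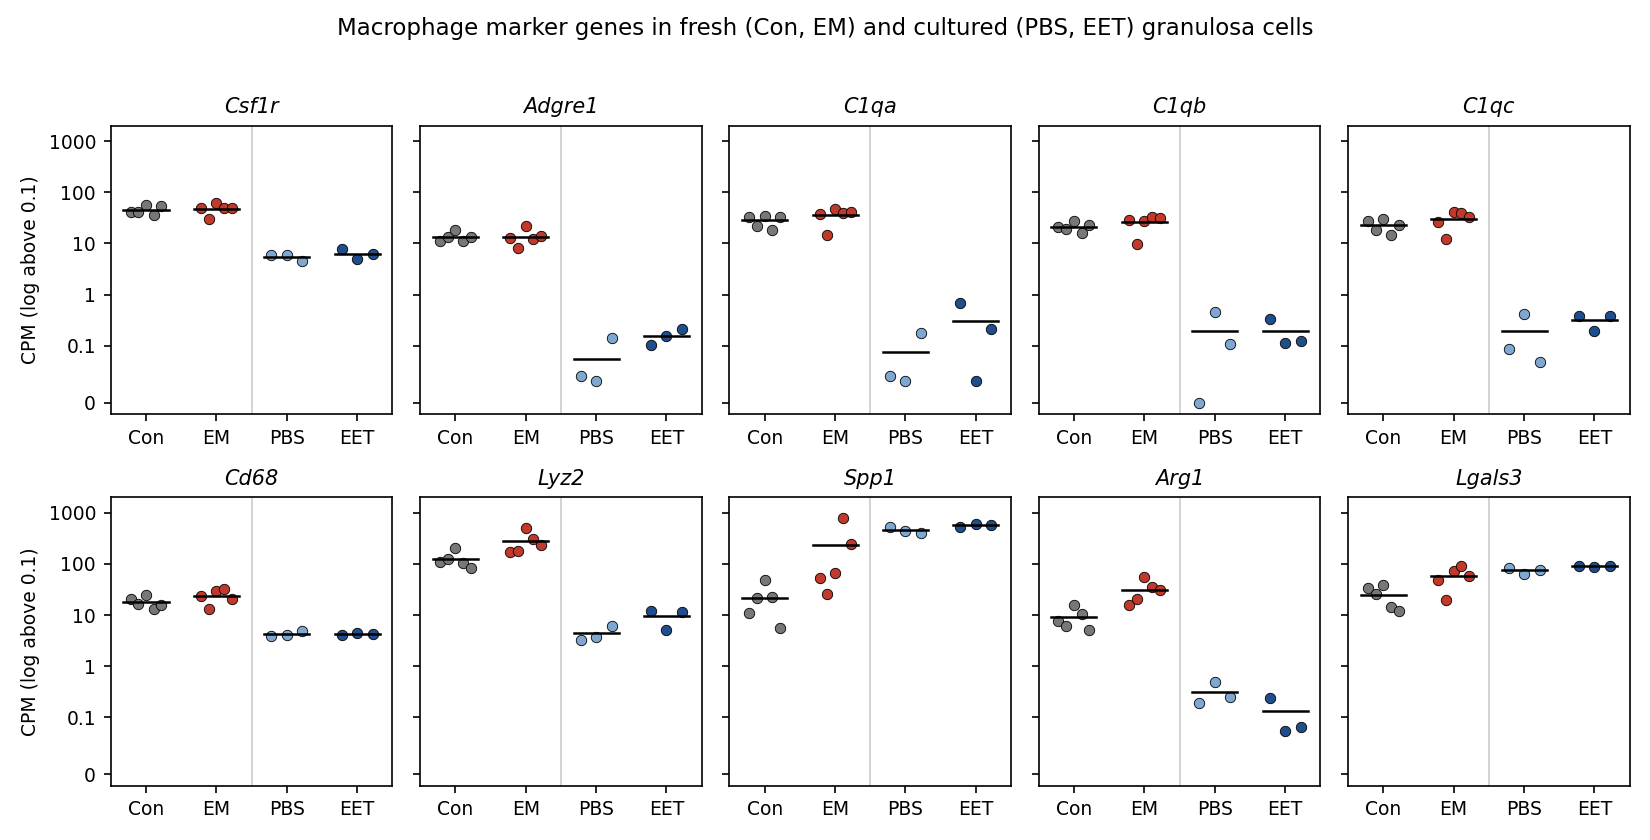
CPM of each gene (vertical axis, logarithmic above 0.1 and linear below, 1 panel a gene) in each library of the 4 groups (horizontal axis); each point is a library and the bar is the group mean. The fresh and cultured tables were scaled separately. Adgre1, the C1q genes and Arg1 lie at or below 0.680 CPM in all 6 cultured libraries, while Spp1 lies between 396 and 604 CPM there.

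The C1q genes, Adgre1 and Arg1 were near the limit of detection in culture. C1qa gave 1, 1 and 5 reads with PBS and 20, 1 and 5 reads with EET. C1qb gave 0, 12 and 3 reads with PBS and 10, 3 and 3 with EET, and C1qc gave 2, 11 and 2 with PBS and 11, 5 and 9 with EET. The 3 chains together were highest in PBS-2, at 0.923 CPM, and in EET-1, at 1.39 CPM. Adgre1 gave 1, 1 and 4 reads with PBS and 3, 4 and 5 with EET, and Arg1 gave 4, 13 and 7 with PBS and 7, 2 and 2 with EET. These 5 genes were below the low-count filter, and when edgeR was run with no filter 0 of them were called. C1qa then had a log2 fold change of 1.73 (SE 0.73, adjusted p = 0.309, edgeR) and Arg1 of -1.19 (SE 0.67, adjusted p = 0.603, edgeR). Those of Adgre1, C1qc and C1qb were 0.90, 0.64 and 0.01 (SE 0.95, 0.61 and 0.71).

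Leukocyte genes were also low in culture, and markers of most other cell types were lower there than in EM-mGC. Ptprc gave 0 to 1 reads in each cultured library, against 250 to 360 reads in each EM-mGC library, and Spi1 0 to 6 reads. S100a9 and Chil3 gave 0 reads in all 6 cultured libraries. Every EM-mGC library lay above every PBS library for 26 of 27 lineage and receptor genes, the exception being Cebpa, at 58.3 ± 16.8 CPM in EM-mGC (n = 5) and 137 ± 9.76 with PBS (n = 3), and for 9 of 9 pan-leukocyte and 11 of 14 neutrophil markers. This also held for 8 of 9 granulosa cell, 7 of 8 theca and stromal, and all endothelial, red blood cell and oocyte markers (5 each). It held for 11 of 11 T, B and NK cell and 6 of 7 dendritic cell and antigen presentation markers. Among mast cell and eosinophil markers it held for 2 of 7, and over all 17897 genes for 44.4%. The pan-leukocyte markers summed to 2.85 to 4.89 CPM with PBS and 3.24 to 4.66 CPM with EET. Of the lipid, lysosome and activation genes 11 of 17 were higher in every EM-mGC library, and Ctsb, Ctsd, Lpl, Hmox1 and Thbs1 were higher in every PBS library.

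Per length, Spp1 was the highest member in culture, at 274 ± 36.0 RPKM with PBS and 343 ± 24.0 with EET (SD, n = 3 each), and Lgals3 was the second at 40.2 ± 4.96 and 48.4 ± 2.05 RPKM. Cd68 and Lyz2 followed at 3.37 ± 0.375 and 3.34 ± 1.18 RPKM with PBS, which did not differ beyond their spread, and Csf1r had 0.939 ± 0.139 RPKM. With EET the 2 genes changed places, at 7.18 ± 2.79 RPKM for Lyz2 and 3.41 ± 0.109 for Cd68. The other 5 members were at or under 0.297 RPKM in mean level in both cultured groups, and neighbours in their order with PBS did not differ beyond their spread. For each Csf1r read there were 75.3 to 88.1 reads of Spp1 with PBS and 68.1 to 124 with EET, and 11.02 to 16.9 and 11.99 to 17.5 reads of Lgals3. Csf1r did not keep step with Adgre1 between the experiments. Adgre1 gave 0.00654 to 0.032 reads per Csf1r read with PBS and 0.251 to 0.343 in EM-mGC, so these ratios are not levels per macrophage.

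In the comparison of EET with PBS, Lyz2, Spp1 and Lgals3 had the larger differences, and Csf1r and Cd68 had log2 fold changes of 0.22 and 0.01. The 5 members that passed the low-count filter all had a higher fitted level with EET, and 0 of them were called, with a smallest adjusted p of 0.0989 (edgeR), where 1.22% of 15050 genes were called. At an unadjusted p under 0.05, 3 of the 5 were higher and 0 lower, against 6.03% higher and 6.38% lower over all genes tested. The libraries did not overlap for 2 of them, Spp1 and Lgals3, where every EET library lay above every PBS library in 8.48% of genes. The median log2 fold change of the 5 was 0.27, and that of all genes tested was 0.00107.

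Lyz2 measured 3.23, 3.81 and 6.15 CPM with PBS and 11.9, 5.22 and 11.3 CPM with EET. EET-2 lay inside the range of PBS, and the other two EET libraries were above it. The log2 fold change was 1.08 (SE 0.29, adjusted p = 0.108, edgeR). It was called without EET-2 (adjusted p = 0.0257, edgeR), where the log2 fold change was 1.37. With the replicate number as a block, which may not mark the pairs, it was called too, at a log2 fold change of 1.06 (adjusted p = 0.0191, edgeR), in a fit that called 2.27% of all genes. Lyz2 was not called with DESeq2 (adjusted p = 0.291, DESeq2) or with a robust dispersion estimate (adjusted p = 0.326, edgeR). Its adjusted p lay between 2.7e-13, with no low-count filter, and 0.444, without EET-3.

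Spp1 measured 514, 443 and 396 CPM with PBS and 525, 604 and 564 CPM with EET. All 3 EET libraries were above the PBS libraries, and PBS-1 and EET-1 lay closest to each other. The log2 fold change was 0.32 (SE 0.08, adjusted p = 0.0989, edgeR). Lgals3 measured 83.1, 64.9 and 76.1 CPM with PBS and 92.5, 85.5 and 91.7 CPM with EET, a log2 fold change of 0.27 (SE 0.08, adjusted p = 0.147, edgeR). Both genes were called without PBS-1, with adjusted p-values of 0.00216 for Spp1 and 0.0155 for Lgals3 (edgeR). With the replicate block Lgals3 was called (adjusted p = 0.0216, edgeR) and Spp1 was not (adjusted p = 0.0511, edgeR). Over all alternatives the adjusted p lay between 4.4e-07 and 0.428 for Spp1 and between 0.00121 and 0.496 for Lgals3, in both lowest with no low-count filter.

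Csf1r measured 5.88, 5.89 and 4.496 CPM with PBS and 7.71, 4.87 and 6.24 CPM with EET, a log2 fold change of 0.22 (SE 0.17, adjusted p = 0.637, edgeR). Cd68 measured 3.94, 4.001 and 4.78 CPM with PBS and 4.15, 4.42 and 4.31 CPM with EET, a log2 fold change of 0.01 (SE 0.14, adjusted p = 0.983, edgeR). The estimate of Cd68 was below 0 without PBS-1, PBS-2 or EET-2. The groups overlapped in both genes.

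Of the other lineage and receptor genes 6 of 27 were tested in culture and 1 was called. Cebpa, a transcription factor of myeloid cells that granulosa cells also express, was higher with EET, at 171 ± 8.63 CPM against 137 ± 9.76 (n = 3 each), a log2 fold change of 0.32 (SE 0.06, adjusted p = 0.0236, edgeR). Fcgr3 had a log2 fold change of -0.44 (SE 0.18, adjusted p = 0.329, edgeR). Of the 17 activation genes 13 were tested and 0 called, with Tgfbi at 0.322 ± 0.139 CPM with PBS and 1.00 ± 0.112 with EET (n = 3 each; log2 fold change 1.58, SE 0.35, adjusted p = 0.0519, edgeR), and Ctsb and Lpl both at -0.19. Tgfbi gave 4 to 13 reads per library with PBS and 23 to 32 with EET. It passed the low-count filter through its EET libraries, so a high level with EET was a condition of its test. Among the partners, Cd93, a receptor once described as binding C1q, was lower and called, with a log2 fold change of -0.26 (SE 0.05, adjusted p = 0.0170, edgeR). The osteopontin receptors Itgb5 and Itgb3 had log2 fold changes of -0.21 (SE 0.05) and -0.30 (SE 0.12) and the complement protease C1s1 -0.14 (SE 0.06), none of them called. The ligands of CSF1R (0 of 2), arginine metabolism (0 of 6 tested), other galectins (0 of 4) and lysozyme and LAMP relatives (0 of 2 tested) gave no gene at an unadjusted p under 0.05. Of 9 pan-leukocyte markers 4 were tested, and Laptm5 was at 0.309 ± 0.170 CPM with PBS and 0.677 ± 0.0337 with EET (n = 3 each; log2 fold change 1.13, SE 0.41, adjusted p = 0.278, edgeR). Laptm5 gave 3 to 12 reads per library with PBS and 16 to 21 with EET, and likewise passed the filter through EET. Of the neutrophil markers 1 of 14 was tested, Camp, and 10 of the 14 were at 0 in every EET library. Of the granulosa cell markers 7 of 9 were tested and 1 was called, Inha, with a log2 fold change of -0.36 (SE 0.08, adjusted p = 0.0430, edgeR). Of the theca and stromal markers 6 of 8 were tested, and Lum and Col1a2 were higher at an unadjusted p under 0.05 without being called. Lum gave 4 to 7 reads per PBS library, too few to pass the filter without the EET libraries. The dendritic (3 tested), mast cell and eosinophil (1 tested), endothelial (3 tested) and oocyte (1 tested) markers gave 0 genes at that limit, and 0 lymphocyte and red blood cell markers were tested in culture.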

How the data were processed

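RNA-seq of mGCs was analysed in 16 libraries of 4 groups, taken from the labels. Raw counts of reads on 57010 genes were deposited by the authors in 1 table per experiment. Reads were counted with featureCounts after alignment, and the submitters' processing notes name fastp, HISAT2, StringTie and GRCm39. The strand setting and the handling of reads shared between genes are not given in the sources used here. The libraries were stranded poly(A) libraries read as pairs of 150 bp. Of the 10 members, 0 have the same start in the GRCm38 annotation, which was used only for exon length in RPKM.

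Each experiment was fitted on its own with edgeR 4.0.16 in R 4.3.3 (filterByExpr with the group, TMM, quasi-likelihood test, Benjamini-Hochberg over all genes tested, adjusted p of 0.05, no fold limit). CPM values use the TMM factors. Within every group the libraries differed beyond counting noise. The labels number the replicates without naming the animals of each cultured library, so p-values there may measure technical spread. Alternatives were DESeq2 1.42.0, other scaling factors and filters, a robust dispersion estimate, the replicate number as a block, and leaving out each library. On simulated counts for EM-mGC against Con-mGC, edgeR recovered 49 of 99 genes changed 2-fold and 85 of 94 changed 4-fold, with 7 false calls, and for EET against PBS 82 of 99 and 94 of 96, with 14 false calls.

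The members and lists were chosen with earlier results of these data known. All members are named. In other lists, the plan was to name up to 4 genes per comparison with an unadjusted p under 0.05, lowest p first, and otherwise the most abundant. It was not followed for every list. Fewer genes are named for the pan-leukocyte and neutrophil markers in fresh cells, the granulosa cell markers in culture and several lists with no gene at that limit. Further genes were named after their values were seen (Ptprc, Spi1, Hmgxb3, and the genes that were higher in every PBS library). Likeness is Pearson's r of log2(CPM + 0.5) among genes without a predicted symbol. Promoters were read from RefSeq. No column of values was left unused (0 columns).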

Additional observations from a re-analysis of the deposited data

Results flagged for a closer look

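Of 20 groups of 5 libraries tested for a library apart from the others (10 members in Con-mGC and in EM-mGC), 2 had one by Dixon's ratio of the gap to the range, with a limit of 0.71, where about 1 is met by chance. C1qb in EM-mGC had a ratio of 0.777, with EM-mGC-2 at 9.92 CPM and the other 4 libraries between 27.5 and 32.6 CPM. Spp1 in EM-mGC had a ratio of 0.712, with EM-mGC-4 at 793 CPM and the next library, EM-mGC-5, at 247 CPM. Groups of 3 were not tested in this way.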

How the results depend on the processing

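In EM-mGC against Con-mGC, the count of members called moved from 0 to 3 with DESeq2 (Lyz2, Spp1, Arg1), and lay between 0 and 1 with single libraries left out, the 1 being Arg1 without Con-mGC-3. The count at an unadjusted p under 0.05 lay between 4 and 8, with 8 without EM-mGC-2, where the share of all genes at that limit was 14.4% against 9.44%. Direction turned for Adgre1, whose log2 fold change lay between -0.19 and 0.17 with single libraries left out, with the replicate block (-0.012) and without Con-mGC-1, Con-mGC-4 or EM-mGC-3 (-0.027, -0.035 and -0.19), and for Csf1r without EM-mGC-3 (-0.035, against at most 0.21 without EM-mGC-2). In EET against PBS, members called moved from 0 to 1 with DESeq2 (Spp1), to 3 with no low-count filter (Lyz2, Spp1, Lgals3) and to 2 with the replicate block (Lyz2, Lgals3), and lay between 0 and 2 with single libraries left out, with 2 without PBS-1 and 1 without EET-2. Cd68 turned without PBS-1, PBS-2 or EET-2 (-0.035, -0.035 and -0.011, against at most 0.11 without PBS-3). The cause of these moves was not tested. Over all genes, calls in EM-mGC against Con-mGC were 0, but 114 with DESeq2, 4 without a filter, 2 with the block, 46 without Con-mGC-3 and 1 without EM-mGC-1. In EET against PBS they were 184, but 330 with DESeq2, 662 without a filter, 341 with the block, 350 without PBS-1, 436 without PBS-2, 122 without EET-1, 61 without EET-2 and 48 without EET-3. The deviations of same-numbered PBS and EET libraries correlated at 0.0856, 0.159 and -0.0434. Libraries with unlike numbers were not compared in this way, so these values cannot decide whether equal numbers mark the pairs named in the methods. The fresh libraries came from different mice, with correlations from -0.282 to 0.203. With single libraries left out, the log2 fold change of Arg1 in fresh cells lay between 1.51 and 2.09 and that of Spp1 between 2.18 and 3.99. The count of 8 members higher in every EM-mGC than every PBS library held with each other scaling and without any single library. The 5 members with 0 to 20 reads per cultured library fell below the low-count filter, and depth limits their precision. These values cover counting error only in part, since PCR copies are not independent molecules.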
